A study of Mus musculus with 3 samples.

Results

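Metallothioneins are small cysteine-rich proteins that bind zinc and copper, and *Mt1*, *Mt2* and *Mt3* were described here across the cell classes of the mouse brain after stroke. The 3 genes were found by their symbols in the gene list of a scRNA-seq matrix and were 3 of its 31053 genes. The tissue came from control, Ischemic Stroke (IS) and Hemorrhagic Stroke (HS) mice of the strain labelled C56BL6 at 10 weeks of age, and the cells of 8 mice per condition were pooled into 1 library. Ischemic stroke was made by occlusion of the middle cerebral artery and hemorrhagic stroke by collagenase injected into the striatum, and the labels and methods do not state how long after surgery this tissue was collected. The matrix joins 3 libraries that are told apart by a barcode suffix, called library 1, 2 and 3 below, and nothing in the labels says which condition a suffix stands for. The libraries are therefore described without a condition, each value comes from 1 library with no replicate, and no test between conditions was made.

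*Mt1* and *Mt2* are the widely expressed, stress-inducible metallothioneins, whose transcription is switched on by the zinc-sensing factor MTF1 through metal response elements and also by glucocorticoids. *Mt3* is the brain-enriched member, first known as a growth inhibitory factor, and it responds less to metals. In the brain, astrocytes are the best known source of the *Mt1* and *Mt2* proteins. All 3 proteins buffer zinc and copper and take up oxidants, and *Mt1* and *Mt2* are known to rise after injury.

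The 3 genes lie in a cluster on chromosome 8 of GRCm38, the assembly named mm10 in the submitters' processing notes, and all are transcribed from the plus strand. In GENCODE vM21 *Mt3* (ENSMUSG00000031760) spans chr8:94152607-94154146, *Mt2* (ENSMUSG00000031762) chr8:94172664-94173568 and *Mt1* (ENSMUSG00000031765) chr8:94179082-94180327, and each has 3 exons. The epidermal relative *Mt4* lies upstream at chr8:94137197-94139031, so that the 4 genes span 43131 bases. Not 1 *Mt4* UMI (unique molecular identifier, the tag that counts an RNA molecule once) was found in the matrix. The transcripts of *Mt1*, *Mt2* and *Mt3* are 549, 511 and 536 bases long, and the longest stretch shared between any pair was 27 bases (*Mt1* and *Mt3*). An antisense gene on the minus strand, *Gm45774*, overlaps *Mt2* and was counted at 14.5, 0 and 3.43 CPM (UMIs of a gene per 1000000 UMIs) in astrocyte-like cells of libraries 1, 2 and 3.

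The windows around the transcription starts are shown because the members differ in how often they hold the letters that MTF1 reads. Each window holds 250 bases before and 50 bases after the RefSeq start (GRCm38.p6, plus strand) and is printed in lower case, with capitals marking the core of a metal response element, TGCACNC or TGCGCNC, on either strand.
Mt1, chr8:94178839-94179138: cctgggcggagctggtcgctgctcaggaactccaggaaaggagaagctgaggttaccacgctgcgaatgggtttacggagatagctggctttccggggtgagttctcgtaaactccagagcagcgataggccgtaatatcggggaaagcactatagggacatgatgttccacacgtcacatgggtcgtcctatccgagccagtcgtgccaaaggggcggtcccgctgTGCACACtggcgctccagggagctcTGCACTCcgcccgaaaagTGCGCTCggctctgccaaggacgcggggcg
Mt2, chr8:94172368-94172667: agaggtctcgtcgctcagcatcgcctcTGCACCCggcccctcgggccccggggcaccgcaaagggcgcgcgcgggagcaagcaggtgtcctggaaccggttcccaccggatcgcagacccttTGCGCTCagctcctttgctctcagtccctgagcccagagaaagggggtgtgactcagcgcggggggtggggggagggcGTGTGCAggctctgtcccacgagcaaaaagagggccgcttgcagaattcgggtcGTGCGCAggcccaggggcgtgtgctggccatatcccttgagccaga
Mt3, chr8:94152357-94152656: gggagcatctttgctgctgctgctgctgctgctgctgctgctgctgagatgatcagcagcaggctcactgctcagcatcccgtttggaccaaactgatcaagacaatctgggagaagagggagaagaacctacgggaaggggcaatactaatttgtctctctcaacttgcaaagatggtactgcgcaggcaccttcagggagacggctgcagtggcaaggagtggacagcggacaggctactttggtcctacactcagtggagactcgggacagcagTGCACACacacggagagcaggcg
*Mt2* held 4 cores, 3 of them before the start, *Mt1* held 3 cores, 1 of them before the start, and *Mt3* held 1 core, which lay after the start. Of 32851 RefSeq windows of this length, 25.7% held at least 1 core, 1.97% at least as many as *Mt1* and 0.517% at least as many as *Mt2*. Before and after refer to this annotated RefSeq start only. Other starts were not examined and bases outside the window were not searched, so these are not counts of all elements of a promoter. A match of letters is a description of the window and not evidence of binding.

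The matrix held 35968 barcodes, of which 31982 had at least 1000 UMIs and at most 30% mitochondrial counts. Each of these was put in the class whose marker genes held its marker UMIs, if at least 3 markers of the class had a UMI and the class held at least 66.7% of all marker UMIs, and 28102 were placed. No metallothionein was used in this gate. Classes are called "-like" since they rest on marker genes alone, 13 classes with at least 50 cells are described, and a library is given for a class where it held at least 20 cells. Where a smaller group is named, such as the 27 ependymal-like cells, its number of cells is given. The libraries held 69270514 to 105957232 UMIs, and 110 barcode sequences occurred in more than 1 library, among them those of 174 placed cells. The classes were spread unevenly: 981 of 1001 endothelial-like, 217 of 243 mural-like and 77 of 93 border-associated macrophage-like cells were in library 3, whereas choroid plexus epithelial-like, oligodendrocyte precursor-like, neuron-like, T cell-like and NK cell-like cells reached the minimum in libraries 1 and 2 only. Levels are sums of UMIs over the cells of a class as CPM, with exact Poisson 95% intervals that cover counting error only and not the spread between cells or mice. Less RNA per cell and fewer cells with the RNA cannot be told apart in such a sum, and shares of cells are given beside it.

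All 3 metallothioneins were abundant in astrocyte-like cells. These were 352 cells, 67, 112 and 173 in libraries 1, 2 and 3, and each of the 10 marker genes of the class, among them the glutamate transporter *Slc1a2* and the water channel *Aqp4*, was detected in no less than 42.9% of the cells in any library. *Mt1* stood at 2069 CPM in library 1 (95% interval 1902 to 2246), 3093 CPM in library 2 (2935 to 3257) and 9393 CPM in library 3 (9191 to 9598). *Mt2* stood at 833 CPM (728 to 948), 922 CPM (837 to 1014) and 2094 CPM (2000 to 2193), in the same order. *Mt3* stood at 1109 CPM (988 to 1241), 1194 CPM (1097 to 1298) and 4242 CPM (4107 to 4381). Library 3 was the highest for every member and its interval did not overlap with those of the other libraries, while the intervals of libraries 1 and 2 overlapped for *Mt2* and *Mt3* but not for *Mt1*. Over the pooled cells the 3 genes together made up 10707 CPM, of which *Mt1* held 59.1%, *Mt2* 14.4% and *Mt3* 26.4%. The pooled levels rest on library 3: with it they were 6333, 1542 and 2832 CPM for *Mt1*, *Mt2* and *Mt3*, and without it 2712, 889 and 1162 CPM.

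**Figure D1:**
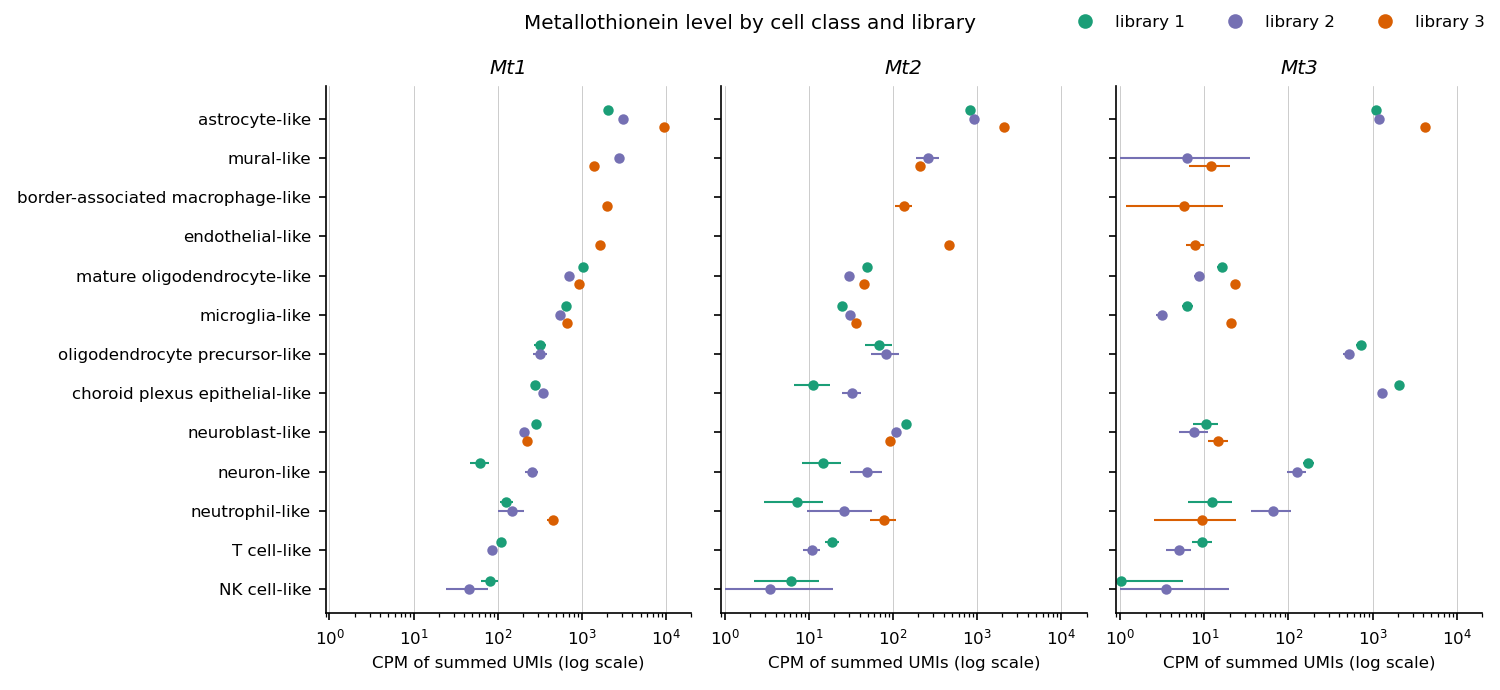
Level of each metallothionein (CPM of summed UMIs, log scale) in 13 cell classes, by library. Points are libraries with at least 20 cells of the class, bars are exact Poisson 95% intervals, and bounds under 1 CPM are drawn at 1. Astrocyte-like cells of library 3 lie farthest right for all 3 genes, and *Mt3* splits the classes into 4 above 100 CPM and 9 at or under 64.8 CPM.

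For *Mt1* the classes formed a graded order. By the median over libraries, astrocyte-like cells at 3093 CPM were followed by mural-like cells, the pericytes and smooth muscle cells of the vessel wall, at 2069 CPM, border-associated macrophage-like cells at 2020.0 CPM and endothelial-like cells at 1628 CPM. The last 2 classes had 1 library each, and mural-like cells stood at 2752 CPM in library 2 (24 cells) and 1385 CPM in library 3 (217 cells). The ranges of astrocyte-like and mural-like cells overlapped, as did those of mural-like and border-associated macrophage-like cells, so the order among them over libraries is not resolved. Within library 3 the intervals of these classes did not overlap, with astrocyte-like cells at 9393 CPM, border-associated macrophage-like cells at 2020.0 CPM (1900.1 to 2146), endothelial-like cells at 1628 CPM (1602 to 1655) and mural-like cells at 1385 CPM (1319 to 1455). Oligodendrocyte-like cells, which make myelin, followed at 1020.4, 704 and 935 CPM and microglia-like cells, the resident macrophages, at 650.4, 553 and 673 CPM in libraries 1, 2 and 3. Both classes were narrow across libraries and did not overlap with each other. At the lower end T cell-like cells stood at 109 and 84.5 CPM and NK cell-like cells at 80.6 and 45.3 CPM in libraries 1 and 2.

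An *Mt1* UMI was found in 96.3% of astrocyte-like cells (exact binomial 95% interval 93.8 to 98.0%), 90.1% of oligodendrocyte-like cells (89.4 to 90.6%), 79.8% of microglia-like cells (79.1 to 80.6%), 74.1% of mural-like cells (68.1 to 79.5%) and 24.8% of T cell-like cells (23.1 to 26.6%). Cells differ in depth, so each cell was also thinned to 1000 UMIs. The share with an *Mt1* UMI was then 57.4, 46.4 and 53.5% of oligodendrocyte-like cells and 35.5, 33.8 and 40.8% of microglia-like cells in libraries 1, 2 and 3, against 7.26 and 6.81% of T cell-like cells in libraries 1 and 2. In mural-like cells it was 70.8 and 49.3% in libraries 2 and 3, not above that of oligodendrocyte-like cells in library 3, although their CPM was higher there. T cell-like cells are given here as a class with little *Mt1*, in which free RNA of the droplets is also counted. Oligodendrocyte-like and microglia-like cells were above them in libraries 1 and 2, which is built into the choice of a class with low *Mt1*. Library 3 held only 17 T cell-like cells and gives no such value. The part of free RNA in these shares was not tested.

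*Mt2* was more restricted to astrocyte-like and vascular cells than *Mt1*. Endothelial-like cells of library 3 came next to astrocyte-like cells at 464 CPM (450 to 479), and 70.03% of them (67.1 to 72.9%) had an *Mt2* UMI. Mural-like cells stood at 262 and 212 CPM in libraries 2 and 3, border-associated macrophage-like cells at 134 CPM and neuroblast-like cells at 142, 109 and 92.0 CPM in libraries 1, 2 and 3. Oligodendrocyte-like cells stood at 49.1, 29.99 and 44.6 CPM and microglia-like cells at 24.5, 31.0 and 36.4 CPM, although both had more *Mt1* than neuroblast-like cells, which stood at 288, 206 and 222 CPM. Neuroblast-like cells were thus above both glial classes in *Mt2* and below them in *Mt1* in every library.

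The ratio of *Mt1* to *Mt2* UMIs was high in some classes and low in others, in each library. UMIs of these 3′ libraries are not scaled for length, and the genes may be captured unequally, so the ratio is read between classes and not as a ratio of molecules. It was 20.8 (19.4 to 22.3), 23.5 (21.7 to 25.4) and 21.0 (19.8 to 22.2) in oligodendrocyte-like cells of libraries 1, 2 and 3, with exact conditional 95% intervals. In microglia-like cells it was 26.5, 17.8 and 18.5, and in border-associated macrophage-like cells of library 3 it was 15.1 (11.9 to 19.5). At the other end it was 2.02 (1.81 to 2.26), 1.89 (1.67 to 2.14) and 2.41 (2.12 to 2.75) in neuroblast-like cells, 3.51 (3.39 to 3.63) in endothelial-like cells of library 3 and 2.48, 3.35 and 4.48 in astrocyte-like cells. These high and low values did not overlap, T cell-like (5.80 and 7.79 in libraries 1 and 2) and mural-like cells (10.5 and 6.54 in libraries 2 and 3) lay between them, and the ratio changed less between libraries than between oligodendrocyte-like and neuroblast-like cells within any library. Some classes moved between libraries. In choroid plexus epithelial-like cells the ratio was 25.2 (15.7 to 42.9) in library 1 and 10.7 (8.24 to 14.2) in library 2. In neutrophil-like cells it was 17.7, 5.67 and 5.82, with only 7 and 6 *Mt2* UMIs in libraries 1 and 2. In astrocyte-like cells the ratio was highest in library 3, where *Mt1* was highest, and its interval there (4.26 to 4.72) did not overlap with that of library 1 (2.13 to 2.91).

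**Figure D2:**
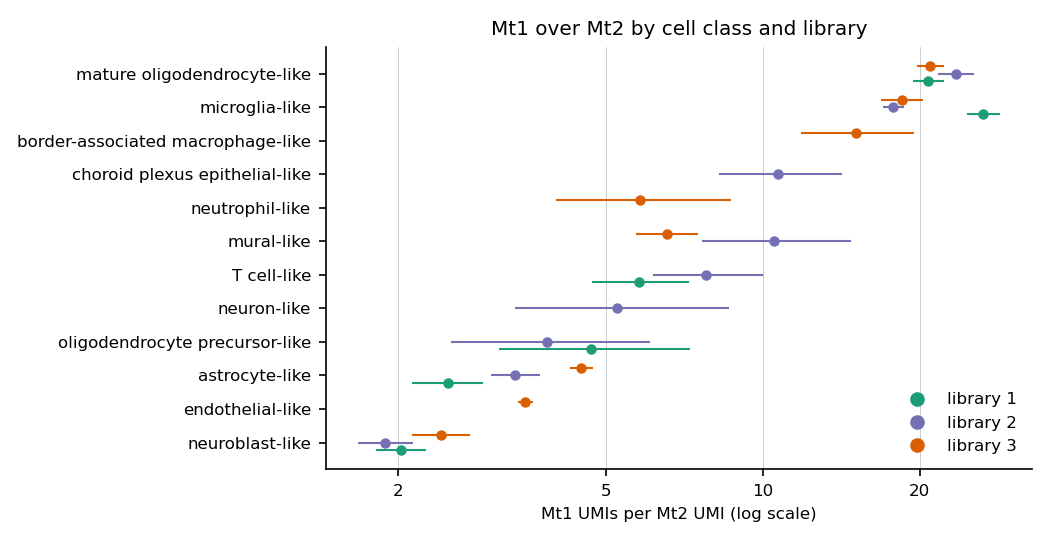
Ratio of *Mt1* to *Mt2* UMIs (log scale) by cell class and library, for libraries with at least 20 cells and at least 20 *Mt2* UMIs. Bars are exact conditional 95% intervals of counting error. Neuroblast-like cells lie between 1.89 and 2.41 and oligodendrocyte-like cells between 20.8 and 23.5.

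*Mt3* followed another pattern and was high in 4 classes. Choroid plexus epithelial-like cells, which secrete the cerebrospinal fluid, stood at 2056 CPM in library 1 (1987 to 2127) and 1307 CPM in library 2 (1256 to 1360), and 98.6% of their 211 cells had an *Mt3* UMI. Their range overlapped with that of astrocyte-like cells, so the order of these 2 classes is not resolved, and within library 1 the choroid plexus epithelial-like cells were higher, while in library 2 the intervals overlapped. Oligodendrocyte precursor-like cells stood at 719 and 522 CPM and neuron-like cells at 172 and 127 CPM in libraries 1 and 2. The neuron-like class was small, with 85 and 39 cells, and the neuropeptide gene *Avp* was among its leading genes. All other classes had a median of 15.99 CPM or less.

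The low *Mt3* values varied by library. Library 2 was the lowest and library 3 the highest in oligodendrocyte-like cells (15.99, 8.64 and 23.1 CPM in libraries 1, 2 and 3), microglia-like cells (6.29, 3.104 and 20.7 CPM) and neuroblast-like cells (10.6, 7.57 and 14.7 CPM). In neutrophil-like cells the CPM went the other way, at 12.3, 64.8 and 9.36, but the library 2 value came from 15 UMIs in 2 of 66 cells. Their share of cells with an *Mt3* UMI was 4.24, 3.03 and 7.14%, and after thinning 1.27, 3.03 and 0%. The order of libraries is therefore not resolved in this class. Barcodes under 1000 UMIs, which hold more free RNA in relation to their size, had 86.3, 72.05 and 372 CPM of *Mt3* in libraries 1, 2 and 3. Their *Mt1* stood at 538, 498 and 1655 CPM and their *Mt2* at 58.5, 55.2 and 271 CPM. This *Mt1* was below that of oligodendrocyte-like and microglia-like cells in libraries 1 and 2. In library 3 it was above that of both classes and of mural-like cells. Their *Mt2* values were above those of oligodendrocyte-like and microglia-like cells in each library. The part of free RNA in the low *Mt3* values, and in the *Mt1* and *Mt2* levels of any class, was not tested. Precursor-like and oligodendrocyte-like cells belong to 1 lineage, and *Mt3* in the precursors was 719 CPM against 15.99 CPM in library 1 and 522 CPM against 8.64 CPM in library 2, while *Mt1* went the other way, with 321 against 1020.4 CPM and 316 against 704 CPM.

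The make-up of the metallothionein UMIs therefore differed by class. *Mt3* held 83.0% of them in choroid plexus epithelial-like, 60.1% in oligodendrocyte precursor-like and 59.3% in neuron-like cells. It held 1.75% in oligodendrocyte-like, 1.01% in microglia-like and 0.365% in endothelial-like cells. In choroid plexus epithelial-like cells *Mt2* was low, at 11.1 and 32.1 CPM in libraries 1 and 2, against 279 and 344 CPM of *Mt1*. The neuron-like share differed by library, since *Mt3* held 69.3% in library 1 and 29.4% in library 2, where *Mt1* was 255 CPM against 61.4 CPM. In library 2, 4 of 39 neuron-like cells held 81.25% of the thinned *Mt1* UMIs. Of the 335 *Mt3* UMIs of this class, 176 came from library 1, 60 from library 2 and 99 from the 1 neuron-like cell of library 3.

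**Figure D3:**
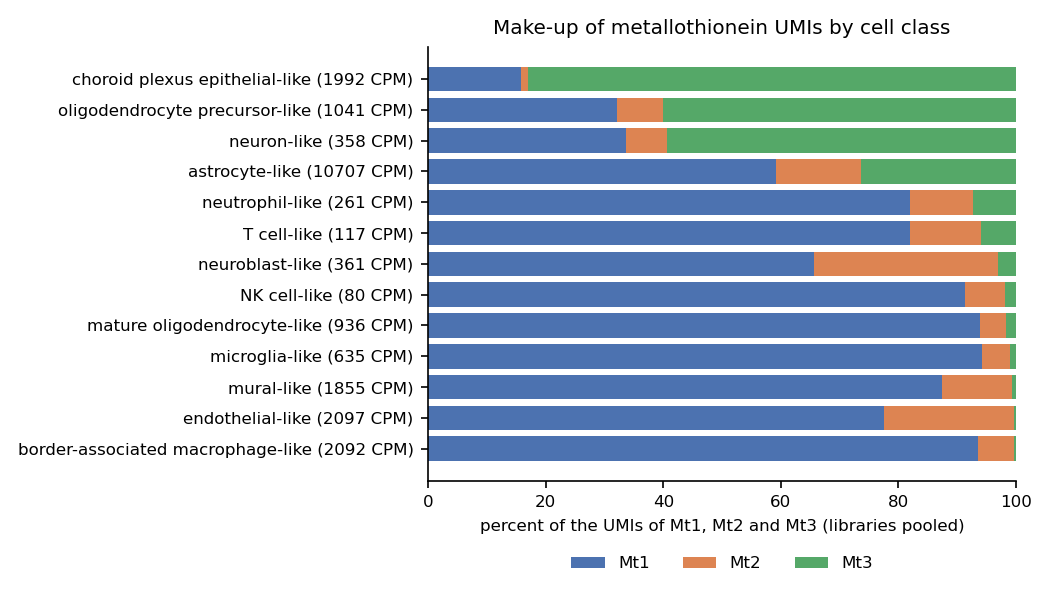
Percent of the UMIs of *Mt1*, *Mt2* and *Mt3* that each gene held in a class, with libraries pooled and the summed level in brackets. *Mt3* fills most of the bar in choroid plexus epithelial-like cells (83.0%), and *Mt1* fills 94.3% in microglia-like cells.

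Against all other placed cells of the same library, the 3 members were higher in astrocyte-like cells in each library. With CPM + 10, *Mt1* was 3.12, 5.57 and 9.62-fold higher in libraries 1, 2 and 3, *Mt2* 17.5, 19.9 and 16.003-fold and *Mt3* 13.3, 24.9 and 86.4-fold. Of all genes with at least 10 CPM on either side, 22.3% in library 1, 23.6% in library 2 and 12.3% in library 3 were at least 2-fold higher in astrocyte-like cells, and 13.6, 11.8 and 14.4% were at least 2-fold lower. All 3 members were among the higher genes in all 3 libraries. The other placed cells differ in make-up between libraries, with 981 of 1001 endothelial-like cells in library 3, where they held 464 CPM of *Mt2*, so these folds are not compared between libraries.

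Between libraries, all 3 members were higher in astrocyte-like cells of library 3. On CPM + 10, library 3 exceeded library 1 by 4.52-fold for *Mt1*, 2.50-fold for *Mt2* and 3.80-fold for *Mt3*. It exceeded library 2 by 3.03, 2.26 and 3.53-fold. Library 2 exceeded library 1 by 1.49, 1.11 and 1.08-fold. All 3 members passed 2-fold in both comparisons with library 3 and none did between libraries 2 and 1. Among all genes, 7.01% were at least 2-fold higher and 6.47% lower in library 3 than in library 1, 3.51% higher and 4.18% lower in library 3 than in library 2, and 4.92% higher and 3.56% lower in library 2 than in library 1. The comparisons share libraries, and with 1 library on each side no fold has a replicate check.

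Several features of the cells differed between these libraries beside the metallothioneins. The median UMIs of an astrocyte-like cell were 2347, 2613 and 4296 and the median mitochondrial share was 11.1, 8.68 and 9.24% in libraries 1, 2 and 3. The 10 astrocyte markers summed to 10308, 10100 and 16548 CPM, led in library 3 by *Slc1a2* (2254, 2970.0 and 5005 CPM) and the glycolytic enzyme gene *Aldoc* (749, 1125 and 3642 CPM). The 8 markers of oligodendrocyte-like cells, which astrocytes lack, summed to 142, 177 and 789 CPM, those of endothelial-like cells to 3.64, 4.31 and 93.7 CPM and those of ependymal-like cells to 76.4, 108 and 136 CPM. Of these classes in library 3, endothelial-like and oligodendrocyte-like cells stood at 1628 and 935 CPM of *Mt1*, whereas its 10 ependymal-like cells stood at 11706 CPM of *Mt1*, 2408 CPM of *Mt2* and 9074 CPM of *Mt3*, above its astrocyte-like cells in *Mt1* and *Mt3* and with an overlapping interval for *Mt2*. The part of these differences in the metallothionein values was not tested.

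The cells were also split by depth. Among the cells at or under the median of 3249.5 UMIs, *Mt1* stood at 2519, 3024 and 8839 CPM and *Mt3* at 1254, 1168 and 4464 CPM in libraries 1, 2 and 3. Among deeper cells *Mt1* stood at 1832, 3118 and 9483 CPM and *Mt3* at 1033, 1204 and 4206 CPM. *Mt2* was 759, 754 and 1922 CPM in the shallower and 872, 983 and 2122 CPM in the deeper cells. Library 3 was thus the highest for every member among shallower and deeper cells alike.

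Per cell, the difference of library 3 lay in the bulk of its astrocyte-like cells and not in a few. After thinning to 1000 UMIs, the median cell had 2, 2 and 8 *Mt1* UMIs, 1, 0 and 2 *Mt2* UMIs and 1, 1 and 4 *Mt3* UMIs in libraries 1, 2 and 3. The share of cells with a UMI was 77.6, 78.6 and 94.2% for *Mt1*, 53.7, 46.4 and 76.9% for *Mt2* and 56.7, 58.9 and 83.2% for *Mt3*. In library 3 the 18 cells with the most *Mt1* held 29.7% of its thinned *Mt1* UMIs, against 35.9% in 7 cells of library 1 and 36.7% in 12 cells of library 2. Within library 3, thinned *Mt1* and *Mt3* counts had a Spearman correlation of 0.64 across 173 cells and *Mt1* and *Mt2* one of 0.55. In library 2 (112 cells) these were 0.45 and 0.44 and in library 1 (67 cells) 0.29 and 0.15. These are descriptions of sparse counts from cells that share a library, and the low counts of libraries 1 and 2 limit how large they can be.

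**Figure D4:**
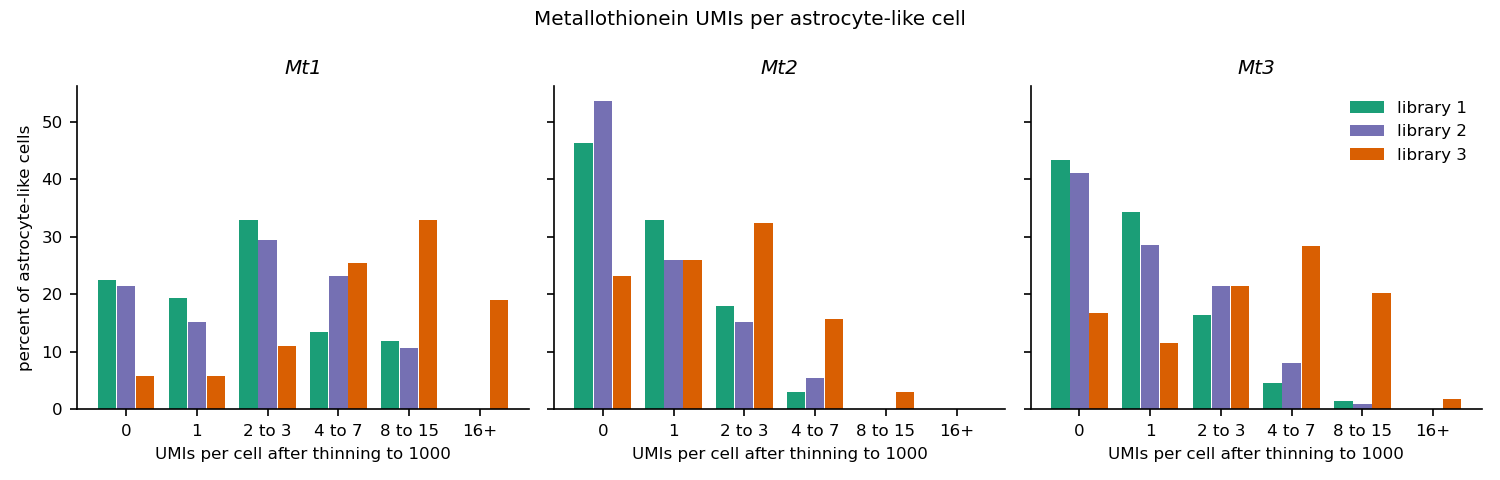
Distribution of *Mt1*, *Mt2* and *Mt3* UMIs per astrocyte-like cell after each cell was thinned to 1000 UMIs, as percent of the cells of each library (67, 112 and 173 cells in libraries 1, 2 and 3). For *Mt1* and *Mt3* the cells of library 3 are shifted to higher counts, with medians of 8 and 4 UMIs.

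The 3 members were not equally high in cells with a UMI of *Agt*, the angiotensinogen gene that marks a regional subset of astrocytes. *Mt1* stood at 3079, 3684 and 11844 CPM in cells with an *Agt* UMI and at 1169, 2845 and 8430.1 CPM in cells without, and *Mt3* at 1397, 1590.5 and 5794 CPM against 853, 1028 and 3633 CPM in libraries 1, 2 and 3. *Mt2* stood at 779, 824 and 2271 CPM against 880.0, 964 and 2025 CPM. *Mt1* and *Mt3* were thus higher in *Agt*-positive cells of each library, whereas *Mt2* was not higher in libraries 1 and 2. Depth differed too, with a median of 2162.5, 2004 and 4458 UMIs in cells with an *Agt* UMI and 7224, 4128 and 4058 in cells without. The median mitochondrial share was 11.8, 12.3 and 9.34% against 6.84, 5.72 and 9.02%. The part of these differences in the levels was not tested. Library 1 had only 15 cells without an *Agt* UMI. Library 3 was the highest on both sides, with an *Agt* UMI in 50 of its 173 cells, against 52 of 67 in library 1.

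Between libraries 3 and 1, *Mt1* and *Mt2* differed less in oligodendrocyte-like, microglia-like and neuroblast-like than in astrocyte-like cells. The ratio of library 3 to library 1 was 0.916 (0.898 to 0.934) for *Mt1* in oligodendrocyte-like cells, 1.04 (1.01 to 1.06) in microglia-like cells and 0.772 (0.702 to 0.848) in neuroblast-like cells, against 4.54 (4.17 to 4.95) in astrocyte-like cells. For *Mt2* the same ratios were 0.908, 1.49 and 0.647, against 2.52. Larger differences were seen in other classes. Neutrophil-like cells had *Mt1* at 127, 147 and 449 CPM in libraries 1, 2 and 3 and 24.6, 27.3 and 54.8% of cells with a UMI. Their median depth was 3206.5, 2477.5 and 7534 UMIs. After thinning, the shares were 8.90, 16.7 and 16.7%, so the share of library 3 was not above that of library 2. The mean thinned *Mt1* count was still highest in library 3, at 0.119, 0.182 and 0.357 UMIs per cell. In library 3, 5 cells held 86.7% of the thinned *Mt1* UMIs. Neutrophil-like cells were few in library 3 (42 cells). In neuron-like cells library 2 exceeded library 1 by a ratio of 4.16 (3.04 to 5.73) for *Mt1* and 3.32 (1.66 to 6.84) for *Mt2*. In choroid plexus epithelial-like cells it did so by 2.89 (1.69 to 5.20) for *Mt2*. In libraries 1 and 2, 32.9 and 41.0% of neuron-like cells had an *Mt1* UMI and 10.6 and 20.5% an *Mt2* UMI. Of choroid plexus epithelial-like cells, 15 and 18.3% had an *Mt2* UMI. After thinning, the *Mt2* shares were 2.35 and 0% in neuron-like and 4 and 0% in choroid plexus epithelial-like cells. The order of libraries for *Mt2* is therefore not resolved in either class. The *Mt3* ratio of library 3 to library 1 was 3.30 in microglia-like and 1.45 in oligodendrocyte-like cells, and that of library 3 to library 2 was 6.68 (5.52 to 8.10) and 2.68 (2.27 to 3.16), at the low levels given above.

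Cell states within the other classes differed in some members. Oligodendrocyte-like cells with 2 or more UMIs of *Klk6*, a protease gene of a mature subtype, had less *Mt1* than those with none in every library (670 against 1146, 564 against 743 and 565 against 1040 CPM). *Mt2* was lower too, at 29.7 against 56.3, 23.1 against 31.7 and 33.6 against 47.1 CPM, and the *Klk6* cells were deeper, with a median of 9869 against 5743.5 UMIs. Microglia-like cells with 2 or more UMIs of the activation gene *Cst7* had *Mt1* at 641 and 548 CPM, against 658 and 545 CPM in cells with none, in libraries 1 and 2. Activated microglia-like cells thus had about as much *Mt1* as those with no *Cst7* UMI, with overlapping intervals in both libraries. The activated cells were deeper, with a median of 12722.5 against 4981.5 UMIs in library 1 and 11467.5 against 4579 in library 2. The part of depth in these levels was not tested. Library 3 had 8 microglia-like cells with 2 or more *Cst7* UMIs.

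In dividing cells, which had a UMI of at least 3 of 6 cell cycle genes, *Mt2* rather than *Mt1* was higher among neuroblast-like cells. *Mt2* stood at 227, 147 and 134 CPM in dividing and 111, 90.5 and 67.0 CPM in non-dividing neuroblast-like cells of libraries 1, 2 and 3, with intervals that did not overlap. *Mt1* stood at 265, 182 and 211 CPM against 296, 217 and 229 CPM. The dividing neuroblast-like cells were deeper, with a median of 11023 against 4554 UMIs. *Mt2* was also higher in dividing microglia-like cells, at 51.9 against 23.9 CPM in library 1 and 44.0 against 30.6 CPM in library 2. In library 3 it was 251 against 34.5 CPM, with a UMI in 2 of only 9 dividing cells. *Mt1* of microglia-like cells was 786 against 647, 576 against 552 and 364 against 676 CPM. Their median depth was 18405 against 7439.5 UMIs. Dividing T cell-like cells had *Mt1* at 280 and 138 CPM, against 72.5 and 77.3 CPM in the non-dividing cells of libraries 1 and 2, and were deeper, with a median of 11401 against 4680.0 UMIs. In dividing T cell-like cells of library 1, *Mt2* was 74.5 against 6.83 CPM and *Mt3* 28.6 against 5.29 CPM, while the intervals of both genes overlapped in library 2.

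Genes with a class pattern like that of each member were sought over 29 sums of a class in a library, by Pearson correlation of log2(CPM + 10) among 14139 genes that reached 10 CPM in at least 1 sum. For *Mt1* the closest were the endolysosomal channel gene *Tpcn1* (0.89), *Mt2* (0.84), *Selenbp1* (0.82), *Hsd17b11* (0.81) and *Dolk* (0.80). For *Mt2* they were the volume-regulated anion channel gene *Lrrc8a* (0.86), *Rnf215* (0.86), *Sparcl1* (0.84), *Mt1* (0.84) and the arginine transporter gene *Slc7a2* (0.84). For *Mt3* they were the potassium channel gene *Kcnk1* (0.98), the clusterin gene *Clu* (0.95), *Gm42067* (0.95), the BDNF receptor gene *Ntrk2* (0.93) and *Wwc1* (0.93). *Mt1* and *Mt3* had a correlation of only 0.29 and *Mt2* and *Mt3* of 0.40. In astrocyte-like cells *Clu* stood at 1480, 1552 and 5865 CPM and *Kcnk1* at 113, 216 and 548 CPM in libraries 1, 2 and 3. *Ntrk2* stood at 920, 853 and 1294 CPM, *Gm42067* at 36.4, 12.9 and 45.7 CPM and *Wwc1* at 40.0, 51.7 and 45.7 CPM. All but *Wwc1* were highest in library 3, as *Mt3* was. The sums that picked these genes include those of astrocyte-like cells, so this likeness is partly built in and is no separate result. The sums share libraries and are described without a test.

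Lists of genes related to metals and to known inducers were read against the shares over all genes, of which 7.01% were at least 2-fold higher and 6.47% lower in library 3 than in library 1 and 3.51% higher and 4.18% lower than in library 2. Nothing is read from counts of 1 or 0 in lists of this size. Of 10 genes for zinc and copper exporters and the sensor, all reached 10 CPM in astrocyte-like cells of library 3 or 1, with 1 at least 2-fold higher in library 3 (*Slc30a6*, 3.64 and 28.6 CPM in libraries 1 and 3) and 1 lower (*Atp7b*, 29.1 and 3.43 CPM). Against library 2, 0 of 9 passed in either direction. Of the importer genes, 1 of 8 was higher in library 3 than in library 1 (*Slc39a1*, 14.5 and 52.6 CPM) and 0 of 8 than in library 2. The median log2 fold of library 3 over library 1 was -0.09 for the exporters and -0.05 for the importers, beside -0.06 over all genes and 1.93 over the 3 members. *Slc39a12*, a zinc importer gene of astrocytes, stood at 287, 185 and 246 CPM in libraries 1, 2 and 3, and was 24.5, 16.1 and 21.9-fold higher in astrocyte-like than in other placed cells. Library 3 was therefore not the highest for this gene.

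Among genes that respond to known inducers of *Mt1* and *Mt2*, those of glucocorticoids had the most members above 2-fold in library 3 against library 2. There were 4 of 10 higher, beside 3.51% of all genes, namely *Sgk1* (23.7 and 65.2 CPM in libraries 2 and 3), *Tsc22d3* (129 and 358 CPM), *Per1* (21.6 and 54.9 CPM) and *Klf9* (101 and 234 CPM), and 1 lower, *Nfkbia* (300 and 135 CPM). Against library 1, *Sgk1* (10.9 CPM) and *Tsc22d3* (113 CPM) were higher in library 3 and 0 of 10 lower. The median log2 fold of the list was 0.35 against library 1 and 0.31 against library 2. Pooled endothelial-like cells held 1059 CPM of *Sgk1*, 348 of *Klf9*, 91.2 of *Per1* and 215 of *Tsc22d3*. Pooled astrocyte-like cells held 44.0, 182, 40.3 and 250 CPM. Endothelial-like and oligodendrocyte-like markers in astrocyte-like cells were also highest in library 3, as given above. The part of RNA from other cells in this list was not tested. Of the antioxidant genes regulated by NRF2, 2 of 9 were higher in library 3 than in library 1 (*Nqo1* and *Gclm*) and 1 lower (*Txnrd1*), and 0 of 8 were higher than in library 2.

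Genes of reactive astrocytes were also read. *Gfap*, the intermediate filament gene of reactive astrocytes, stood at 204, 2.16 and 44.6 CPM and *Vim* at 462, 218 and 203 CPM in libraries 1, 2 and 3. Both were highest in library 1, where *Mt1* was lowest. So were *Stat3* (43.6, 36.6 and 41.2 CPM), *Lifr* (47.3, 32.3 and 36.6 CPM) and *Serpina3n* (10.9, 4.31 and 2.29 CPM). *Socs3* (47.3, 119 and 104 CPM) was highest in library 2 and *Il6st* (43.6, 36.6 and 58.3 CPM) in library 3. Within libraries, *Mt3* stood at 1882 CPM in the 11 cells with a *Gfap* UMI against 893 CPM in those without in library 1, and at 7106 against 3829 CPM in library 3 (18 cells with a *Gfap* UMI). *Mt1* stood at 1966 against 2098 CPM in library 1 and 11306 against 9116 CPM in library 3, and library 2 had 1 cell with a *Gfap* UMI. Cells with a *Gfap* UMI were deeper, with a median of 2917 against 2291 UMIs in library 1 and 5730.5 against 4058 in library 3. Their median mitochondrial share was 9.01 against 12.4% and 10.2 against 9.18%. The part of these differences in the levels was not tested. Of the STAT3-related and reactive genes, 0 of 7 were at least 2-fold higher in library 3 than in library 1 and 2 were lower (*Gfap* and *Vim*). Against library 2, 1 of 6 was higher in library 3 (*Gfap*) and 0 were lower. The copper and superoxide list (chaperones and superoxide dismutases) had 1 of 6 higher in library 3 against both others (*Sod3*, 3.64, 6.47 and 30.9 CPM). Pooled mural-like cells held 287 CPM of *Sod3*. Markers of mural-like cells summed to 54.5, 47.4 and 122 CPM in astrocyte-like cells of libraries 1, 2 and 3. The part of RNA from other cells in the *Sod3* values was not tested.

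The 10 listed genes that tissue dissociation induces, immediate early genes together with the heat shock genes *Hspa1a* and *Hspa1b*, followed yet another order. They summed to 3851, 8102 and 5231 CPM in astrocyte-like cells, highest in library 2. Of 10, 7 were at least 2-fold higher in library 2 than in library 1, beside 4.92% of all genes, 3 in library 3 than in library 1 and 0 in library 3 than in library 2. *Fos* stood at 836, 2550 and 1389 CPM in libraries 1, 2 and 3. This order of libraries was not shared by other classes. The 10 genes summed to 16006, 18449 and 34487 CPM in microglia-like and 3902, 4925 and 7222 CPM in neuroblast-like cells, highest in library 3. In oligodendrocyte-like cells they summed to 2446, 2036 and 2350 CPM, highest in library 1.

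**Figure D5:**
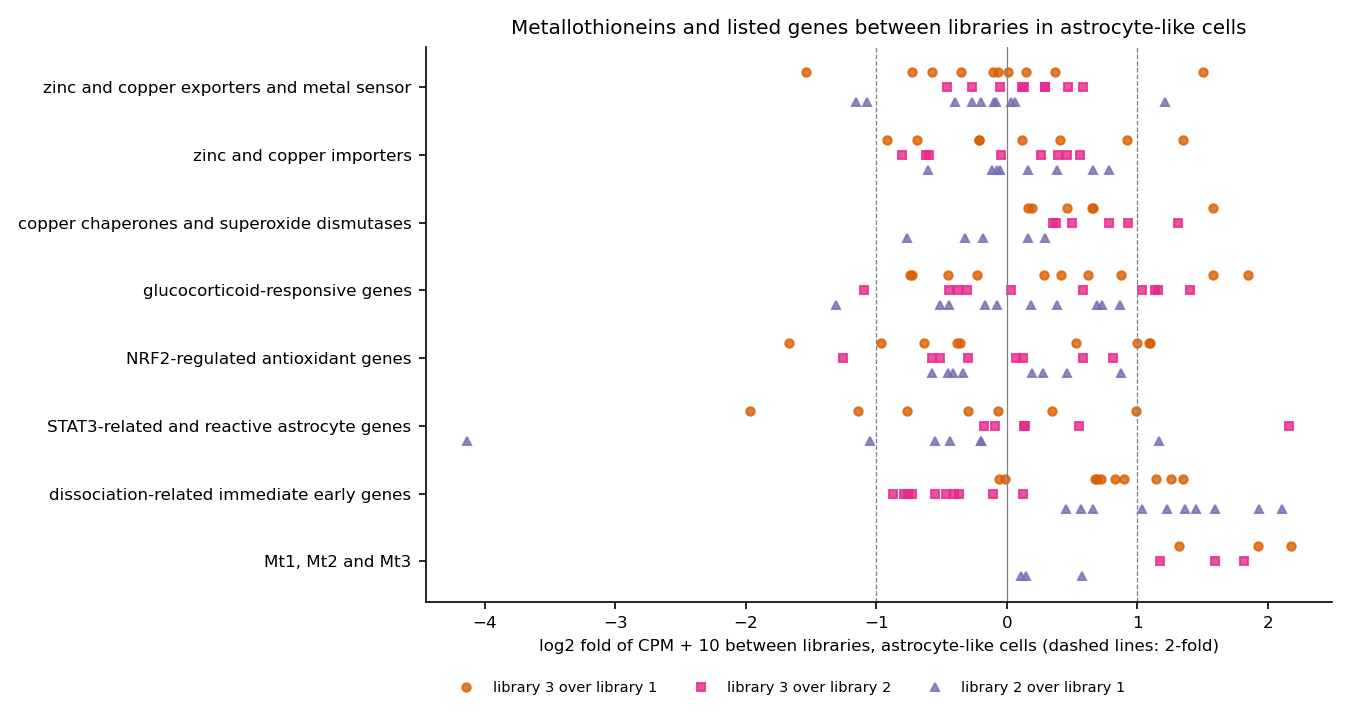
Log2 fold of CPM + 10 between libraries in astrocyte-like cells, 1 point per gene that reached 10 CPM in either library, by gene list and comparison. Dashed lines mark 2-fold. The 3 metallothioneins lie beyond 2-fold in both comparisons with library 3 and within it between libraries 2 and 1. The dissociation-related list (immediate early genes and the heat shock genes *Hspa1a* and *Hspa1b*) lies farthest right between libraries 2 and 1.

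The neighbours of the cluster were read in the same cells. Within 200000 bases on either side, 7 genes other than the members reached 10 CPM in astrocyte-like cells of library 1 or 3. *Gnao1*, a G protein subunit gene, stood at 135, 306 and 558 CPM in libraries 1, 2 and 3 and was 3.93-fold higher in library 3 than in library 1 on CPM + 10. *Nudt21* stood at 182, 157 and 114 CPM. The genes next to *Mt1*, *Gm39228* and *Nup93*, stood at 0, 2.16 and 2.29 CPM and at 43.6, 17.2 and 18.3 CPM.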

How the data were processed

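The authors joined 3 libraries of 10x Genomics 3′ v3 cDNA in 1 matrix of UMI counts, using Cell Ranger 3.1.0 and STAR on mm10, with reads down-sampled across libraries. The deposited values are raw whole-number counts per gene and barcode, with no normalization per cell. The submitters' notes also name Seurat 3.1.1. Counts were summed over the cells of a class and library and scaled to CPM. The gate, with 138 markers of 19 classes, left 3880 kept barcodes unplaced, 2598 of them with mixed markers. Doublets were removed only as far as mixed markers did so, and no doublet caller was run. A fold was taken on CPM + 10, which understates changes of low genes, and called at 2-fold among genes with at least 10 CPM on either side. Cells were thinned with a fixed seed. The calculations (Python 3.11.15, NumPy 2.4.6, SciPy 1.17.1, pandas 2.3.3, Matplotlib 3.10.9) were tested on simulated data. Promoter windows came from RefSeq, where 3 of the 3 members matched. The members and gene lists were chosen with earlier results of these data known. Genes named were the members, the listed genes, those of the cell states and the 5 most alike to each member. Neighbours of the cluster, *Aldoc* and *Avp* were picked after their values were seen. Precision is limited by depth: an astrocyte-like cell had a median of 3249.5 UMIs. Alternatives were a stricter and a looser gate, a mitochondrial limit of 10%, the upper depth limits of the study's methods, thinned cells, means of each cell's CPM and leaving out each library. No comparison between conditions was made, since the barcode suffixes are not paired with them.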

Additional observations from a re-analysis of the deposited data

Results flagged for a closer look

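Ependymal-like cells, the ciliated cells that line the ventricles, were under the minimum of 50 cells and were left out of the order of classes. Their metallothionein levels lay above the 12.1 CPM that 3 counts in these cells would give. Over 27 cells *Mt1* stood at 11260 CPM, *Mt2* at 2798 CPM and *Mt3* at 6914 CPM, with counting intervals of 10846 to 11684, 2594 to 3014 and 6591 to 7249 CPM. All 27 cells had a UMI of each gene (exact 95% interval 87.2 to 100%). These pooled levels exceed those of the pooled astrocyte-like cells, at 6333, 1542 and 2832 CPM. No library held 20 ependymal-like cells, so the comparison with astrocyte-like cells of library 3 given above rests on 10 cells and is a description only.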

How the results depend on the processing

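In astrocyte-like cells library 3 was the highest for each member under all 6 settings of gate, depth and weight, but the order of libraries 1 and 2 for *Mt3* turned under the stricter gate, the looser gate and the mean of each cell's CPM. With pooled libraries *Mt1* moved from 6333 CPM to 7340.0 under the stricter gate (at least 4 markers and 80% of marker UMIs), 5244 under the looser gate (2 markers and 50%) and 7236 under the upper depth limits. *Mt2* moved from 1542 to 1680.0, 1328 and 1663 CPM under these settings, 1438 with thinned cells and 1447 with the mean of each cell's CPM. *Mt3* moved from 2832 to 3281, 2269 and 3230.0 CPM, and to 2728 with a mitochondrial limit of 10%. Without library 1, 2 or 3, *Mt1* was 7209, 7641 or 2712, *Mt2* 1688, 1793 or 889 and *Mt3* 3186, 3493 or 1162 CPM. Without library 3 the highest pooled class was mural-like for *Mt1* (3235 CPM) and choroid plexus epithelial-like for *Mt3*. The mural-like cells were then only 2 in library 1, at 11194 CPM of *Mt1*, and 24 in library 2, which is under the minimum of 50. In library 2 by itself *Mt1* was 2752 CPM in mural-like and 3093 CPM in astrocyte-like cells, with overlapping intervals. The fold of library 3 over library 1 for *Mt1*, 4.52, was 3.96 under the stricter gate, 3.84 under the looser gate, 5.01 with the mitochondrial limit of 10%, 4.01 under the depth limits, 3.55 with thinned cells and 3.79 with the mean of each cell's CPM. It was 3.09 for *Mt2* under the stricter gate, and 3.04 and 3.32 for *Mt3* under the stricter and looser gates. The cause of these differences was not tested. Astrocyte-like cells numbered 301 under the stricter gate, 415 under the looser gate and 190 with a mitochondrial limit of 10%. Of 324 values for other classes, 156 moved by more than their counting interval. By more than 1.5 times moved, among others, *Mt2* of oligodendrocyte precursor-like cells (80.9 to 36.5 CPM) and of border-associated macrophage-like cells (128 to 62.7 CPM) under the stricter gate, *Mt1* of neuron-like cells (120.4 to 38.3 CPM) under the stricter gate and *Mt3* of neuron-like cells (212 to 86.0 CPM) under the depth limits. Neutrophil-like *Mt1* fell from 214 to 131 CPM without library 3. No paired analysis was possible because each condition has 1 library and no test was made.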
